A study of Mus musculus with 12 samples.

Results

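The 10 genes described here handle iron and heme, and were listed by name from what they are known to do. The rule itself uses no measured value, though the genes were chosen with earlier results of these data known. They are Fth1 and Ftl1 (ferritin), Tfrc, Slc11a1 and Slc11a2 (uptake and transport), Slc40a1 (export), Aco1 and Ireb2 (regulation), Hmox1 (heme breakdown) and Nqo1 (an enzyme of the antioxidant response). All 10 were found on the array, each with 3 probes, among 25128 features (17277 named genes and 7851 unnamed targets). RNA came from 3 mouse cell lines, AtT20 (a pituitary tumor line from a commercial collection), BV2 (a microglial line, kept so as to remain resting) and N18 (a neuroblastoma line), each with 4 separately grown and extracted plates and 1 single-color NimbleGen array per plate. No line received a treatment, and all 3 shared a medium of DMEM with 10% fetal bovine serum and penicillin and streptomycin, so no condition of low or high iron was measured.

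Ferritin is a shell of heavy and light chains that stores iron inside the cell, and the transferrin receptor brings iron in from the blood protein transferrin. When iron is scarce, the iron regulatory proteins bind RNA, block translation of ferritin mRNA, and stabilize the mRNA of the transferrin receptor, so that ferritin is controlled largely at the protein level and the receptor largely at the level of its mRNA. Macrophages and microglia also recycle iron from engulfed cells, for which heme oxygenase 1 opens the heme ring, NRAMP1 moves metal out of the phagosome and ferroportin exports iron from the cell.

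A gene's level on each plate was the log2 of the mean intensity of its probes minus the mean log2 value of 10 seminal proteins on the same plate. The seminal proteins are genes of the male reproductive tract that the authors took as zero expression, and levels counted from them are called the seminal scale below. A gene was above the threshold in a line when its level, averaged over the 4 plates, exceeded 2 SD of the seminal proteins, which came to 0.56 ± 0.15 (SD, n = 4) for BV2, 0.74 ± 0.10 for N18 and 0.37 ± 0.11 for the AtT20-labelled plates. The AtT20-labelled plates stood apart. Their arrays had an interquartile range of 0.38 to 0.78 (log2) over all probes, against 1.28 to 1.73 for BV2 and 1.91 to 2.21 for N18, and the correlation between plates was 0.898 to 0.95 against 0.964 to 0.988 in the other 2 lines. Of 7 corticotroph markers 1 was above the threshold on those plates (Pitx1, 0.47), while Pomc, which encodes the hormone precursor that defines corticotrophs, was below it at 0.29 ± 0.26 (SD, n = 4). More of these markers were above the threshold in BV2 (2 of 7) and N18 (3 of 7), and Tbx19, a corticotroph transcription factor, was at 0.02 on the AtT20-labelled plates, 1.43 in BV2 and 1.46 in N18. The label is therefore kept in the name of these plates. Of the microglia and macrophage markers, 7 of 9 were above the threshold in BV2, 2 of 9 in N18 and none of 9 on the AtT20-labelled plates. Of the neuroblast markers, 9 of 11 were above it in N18, 6 of 11 in BV2 and 7 of 11 on the AtT20-labelled plates. Each slide carries 4 arrays, and which plates shared one is not given, so slide and line cannot be told apart.

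Fewer of the iron and heme genes were above the threshold on the AtT20-labelled plates than in BV2 and N18, and the same held for all features. In BV2, 8 of the 10 genes were above the threshold, against 53.3% of all features. In N18 there were also 8 of 10, against 55.4%. For the AtT20-labelled plates the count was 4 of 10, against 35.0%. These 4, Fth1, Tfrc, Slc11a2 and Ireb2, were above the threshold in all 3 lines. Nqo1 and Slc40a1 were below it in BV2, Slc11a1 and Slc40a1 in N18, and Slc40a1 was the 1 gene above the threshold in no line. Each gene above the threshold was above that of all 4 plates of its line, but on the AtT20-labelled plates Fth1 and Ireb2 each rested on 1 probe of 3. Signal over background on 4 arrays per line limits every value.

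**Figure D1:**
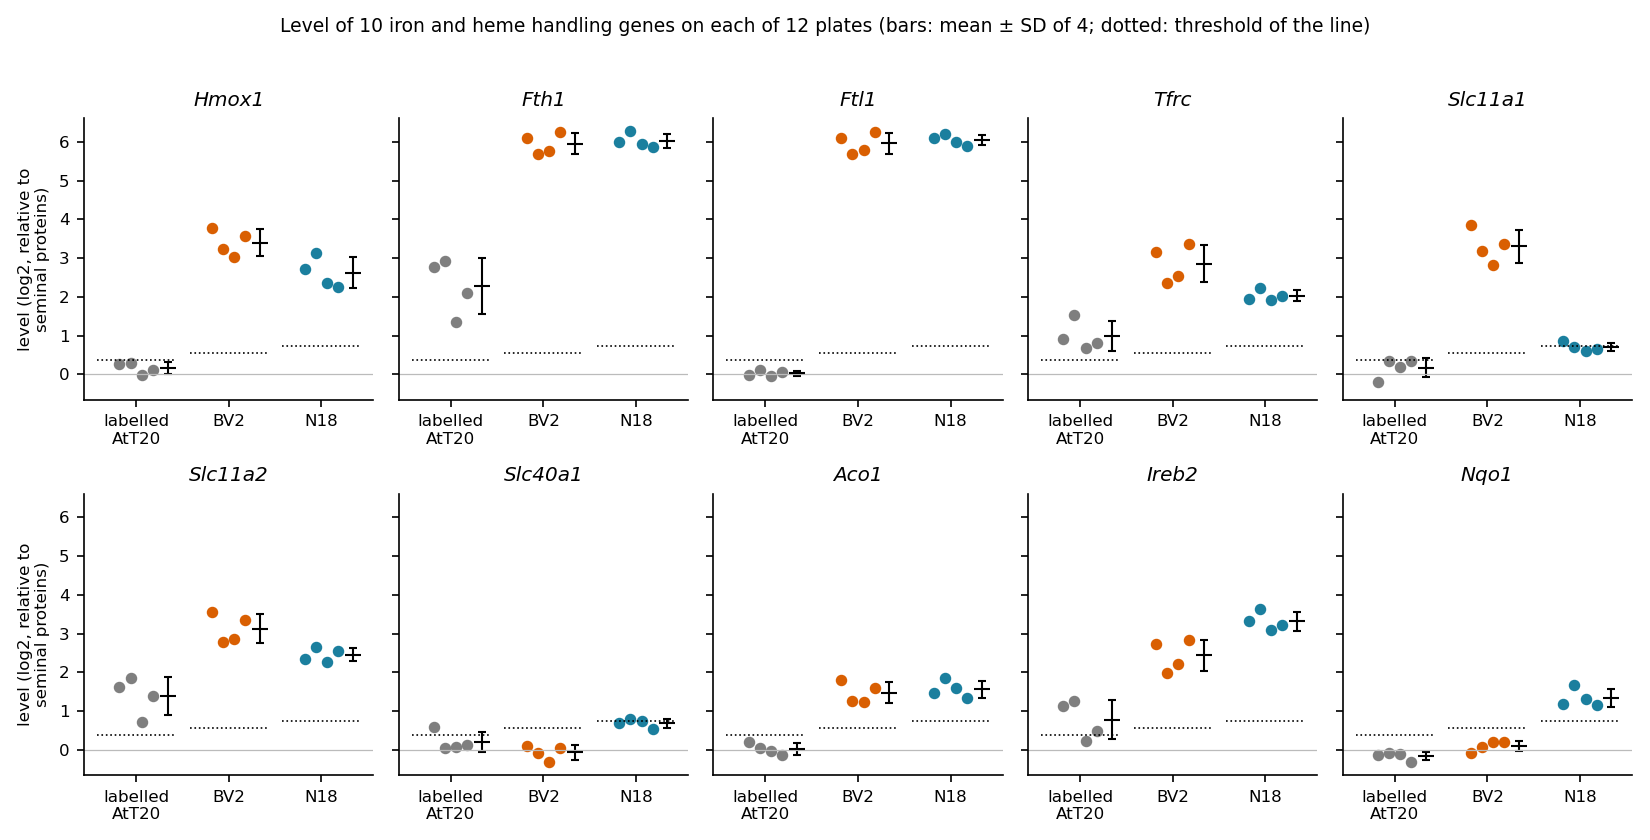
Level of the 10 genes (log2, seminal scale) on each of the 12 plates, with 1 point per plate, the mean ± SD of the 4 plates of a line as a bar and the threshold of the line as a dotted line. Both ferritin genes sit near 6 in BV2 and N18, Slc11a1 is far above the threshold in BV2 only, and Nqo1 is above the threshold in N18 only.

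Lines were compared after quantile normalization of the 12 arrays, with limma and p-values adjusted over all 25128 features. Of the 10 genes, 2 were higher in N18 than in BV2 (Nqo1 and Slc40a1), 6 were lower (Slc11a1, Hmox1, Tfrc, Slc11a2, Fth1 and Ftl1), and 2 were not called (Aco1 and Ireb2). Of all features 40.9% were called, 19.0% higher and 21.9% lower in N18. Among the 15695 features above the threshold in BV2 or N18 or both, 56.4% were called. The median difference of N18 from BV2 was -0.34 over the 10 genes and -0.06 over all features. Called differences were therefore common on these arrays, and the share of them in each direction depended on the scaling. On the seminal scale 51.9% of all features were called and without normalization 38.3%. Of all calls, 46.5% were higher in N18 after quantile normalization, 74.7% on the seminal scale and 80.2% without normalization, while the median difference of all features moved from -0.06 to 0.18 and 0.15. Differences below are after quantile normalization unless another scale is named. In bulk RNA, fewer cells that carry a transcript and less of it per cell cannot be told apart.

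**Figure D2:**
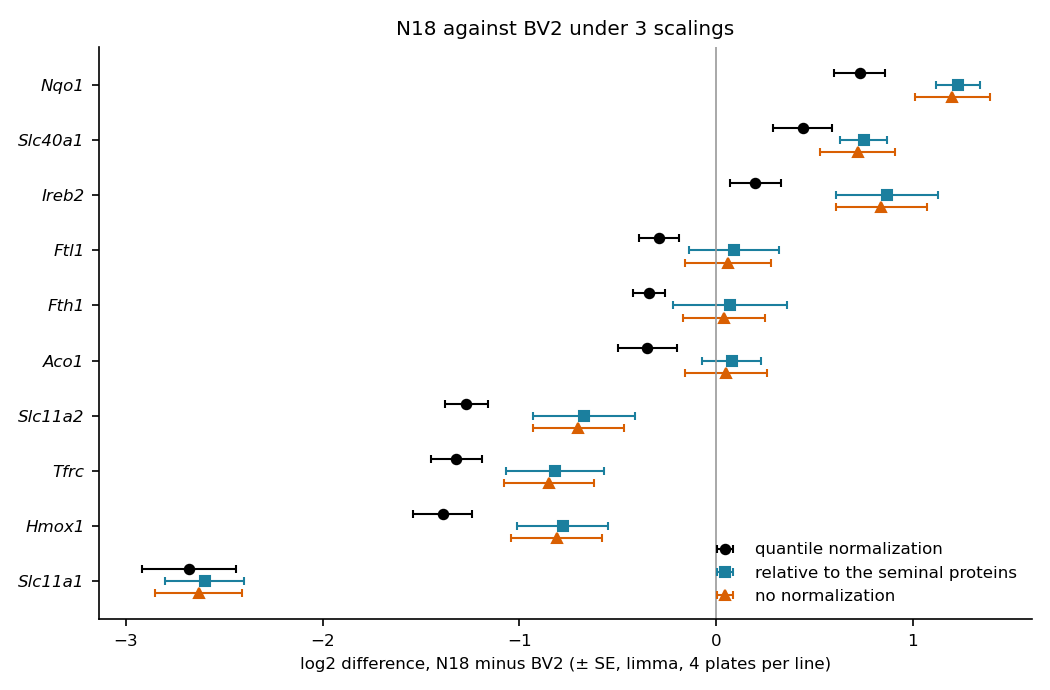
Log2 difference of N18 minus BV2 for the 10 genes (± SE, limma, 4 plates per line) with quantile normalized values (circles), on the seminal scale (squares) and with values left as deposited (triangles). Slc11a1, Hmox1, Tfrc and Slc11a2 are below 0 and Nqo1 and Slc40a1 above 0 on all 3 scales, whereas Fth1, Ftl1 and Aco1 change sign.

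Iron storage came first. Fth1, the heavy chain with the ferroxidase center, had levels of 6.10, 5.69, 5.77 and 6.25 on the 4 BV2 plates and of 5.99, 6.28, 5.94 and 5.87 on the 4 N18 plates. The levels of both lines overlapped and were close to the upper limit of the scanner, since the deposited ferritin values there ran from 14.51 to 16 on a log2 scale that ends at 16. Those of the AtT20-labelled plates were 2.77, 2.93, 1.35 and 2.11, all below every BV2 and N18 plate. After quantile normalization Fth1 was lower in N18 than in BV2 by 0.34 on the log2 scale (-0.34 ± 0.08 SE, adjusted p = 0.0043), but the difference was 0.07 on the seminal scale (adjusted p = 0.859) and 0.04 without normalization. The probes of ferritin genes may also bind the near-identical processed pseudogenes of ferritin, which was not tested.

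Ftl1, the light chain, which aids formation of the iron core, had levels of 6.10, 5.69, 5.78 and 6.25 in BV2. In N18 they were 6.10, 6.19, 6.0 and 5.89. The AtT20-labelled plates had levels of -0.01, 0.10, -0.05 and 0.05, so that no plate was above its threshold and the light chain could not be told from the seminal proteins there. Against BV2 Ftl1 was at least 18.7-fold lower on the AtT20-labelled plates (log2 difference -5.39 ± 0.10 SE, adjusted p = 5.66e-15), and against N18 at least 18.4-fold lower (-5.10, adjusted p = 5.98e-15), each bound being taken against the threshold and as the smallest over 3 scalings. All 3 probes were at background, with means of 0.18, 0.01 and -0.15. Between N18 and BV2 the levels overlapped, and a difference of -0.29 (adjusted p = 0.0344) became 0.09 on the seminal scale (adjusted p = 0.764).

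The heavy chain on the AtT20-labelled plates rested on a single probe. Probe 3 of Fth1 had a level of 3.64 ± 0.88 (SD, n = 4) there, while probes 1 and 2 were at -0.15 ± 0.16 and 0.03 ± 0.23. In BV2 the means of the 3 probes lay between 5.83 and 6.10, and in N18 between 5.47 and 6.28, with probe 3 at the upper limit on 1 N18 plate. The difference of the AtT20-labelled plates from BV2 was -2.72 (adjusted p = 1.83e-13) with the mean of the probes, -5.33 with their median, and -3.66 on the seminal scale. Probe 3 was lower there than in BV2 (-1.37, adjusted p = 2.98e-08). The differences of probes 1 and 2, -5.76 and -5.32, are against background, so no fold is given for the gene.

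**Figure D3:**
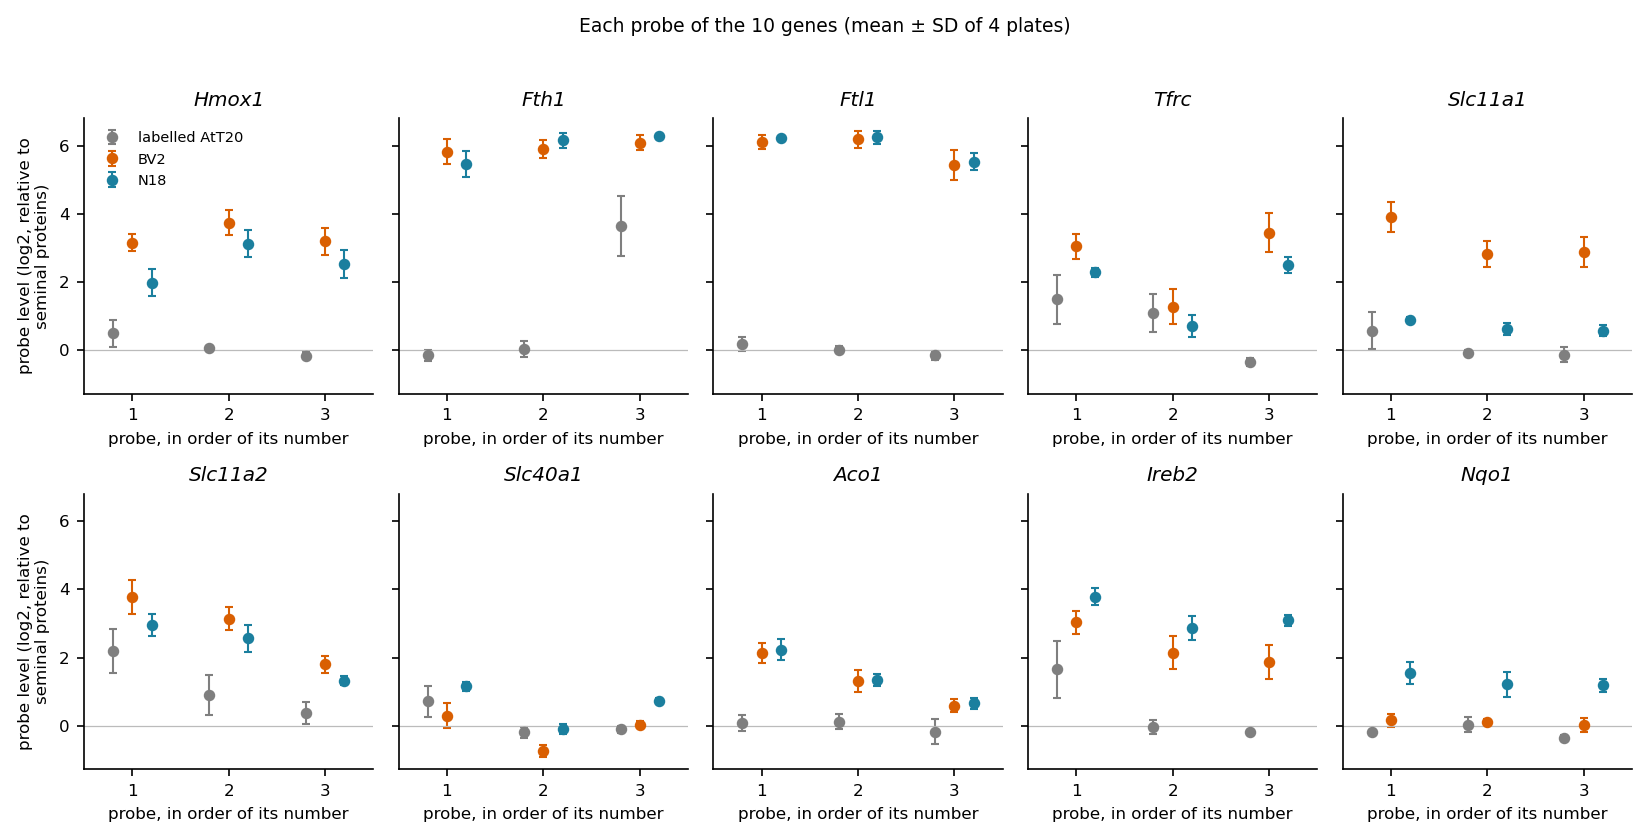
Level of each of the 3 probes of the 10 genes (log2, seminal scale, mean ± SD of 4 plates) in the 3 lines. On the AtT20-labelled plates probe 3 of Fth1 is at 3.64 and its other 2 probes are near 0, and the 3 probes of Ftl1 are near 0.

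Tfrc, Slc11a2 and Slc11a1 were each higher in BV2 than in N18. Tfrc, the transferrin receptor, had levels of 3.16, 2.36, 2.53 and 3.36 in BV2 and of 1.95, 2.24, 1.91 and 2.02 in N18. All 4 BV2 plates were above all 4 N18 plates, and N18 was lower by 1.32 after quantile normalization (-1.32 ± 0.13 SE, 2.5-fold, adjusted p = 5.71e-07) and 1.77-fold lower on the seminal scale (-0.82 ± 0.25 SE, adjusted p = 0.00833). All 3 probes were called in that direction. Levels on the AtT20-labelled plates were 0.92, 1.54, 0.68 and 0.82, below every plate of the other 2 lines. There probes 1 and 2 were at 1.49 and 1.09 and probe 3 at -0.35, against 3.45 and 2.50 for the same probe in BV2 and N18.

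Slc11a2, or DMT1, carries ferrous iron across the endosomal and plasma membranes. Its levels were 3.55, 2.77, 2.85 and 3.34 in BV2 and 2.35, 2.65, 2.27 and 2.55 in N18, without overlap. N18 was 2.4-fold lower after quantile normalization (-1.27 ± 0.11 SE, adjusted p = 5.84e-08) and 1.6-fold lower on the seminal scale (adjusted p = 0.0367), with all 3 probes called. On the AtT20-labelled plates it was 1.62, 1.86, 0.72 and 1.39. There probes 1 and 2 were above the threshold at 2.2 and 0.9, while probe 3 was level with it, at 0.37 ± 0.32 (SD, n = 4) against 0.37.

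Slc11a1 (NRAMP1), the metal transporter of the phagosome of macrophages, had the largest difference of the 10 genes between N18 and BV2. In BV2 its levels were 3.85, 3.18, 2.83 and 3.35. In N18 they were 0.86, 0.70, 0.61 and 0.66, above the threshold on 1 plate but not on average, and on the AtT20-labelled plates -0.19, 0.34, 0.19 and 0.34. It was at least 5.8-fold lower in N18 than in BV2 (-2.68 ± 0.24 SE, adjusted p = 1.15e-07), with 3 of 3 probes called and nearly the same difference on the seminal scale (-2.60) and without normalization (-2.63). It was also at least 2.9-fold lower than in BV2 on the AtT20-labelled plates (-2.38, adjusted p = 1.59e-07). Of the 9 microglia and macrophage markers, 7 were likewise lower in N18 than in BV2, while 2, Aif1 and Cx3cr1, were not called and were below the threshold in BV2 at 0.30 and 0.40. Levels of the 9 ran from 0.30 to 5.97 in BV2, from -0.41 to 1.12 in N18 and from -0.17 to 0.26 on the AtT20-labelled plates, and Csf1r, the receptor for the growth factor of macrophages, was at 4.70, -0.06 and 0.13 in the same order. Spi1, which encodes the myeloid factor PU.1, was at 4.06, 0.60 and -0.17. The part of these markers in the result was not tested.

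The promoter of Slc11a1 is shown because its level separated the lines, with PU.1 a factor known to bind purine-rich sites with the core GAGGAA. These are the 250 bases before the start of the gene in RefSeq (mouse build GRCm38.p6, chr1:74374953-74375202, plus strand), in which capitals mark the match to that core, whose first base lies 152 bases before the start. Such a core, on either strand, was found in 28.3% of the 32851 promoter windows of 300 bases in the table (250 bases before and 50 after the start), and in 2 of the 9 windows of the 7 iron and heme genes that the table holds, those of Slc11a1 and Ireb2. A match of these letters is a description and not a binding site.
Slc11a1: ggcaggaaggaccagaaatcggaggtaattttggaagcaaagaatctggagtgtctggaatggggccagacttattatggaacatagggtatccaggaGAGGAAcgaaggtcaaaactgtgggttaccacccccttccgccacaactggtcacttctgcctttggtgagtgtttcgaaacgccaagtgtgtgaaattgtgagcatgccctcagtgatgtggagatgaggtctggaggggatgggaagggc

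Slc40a1, or ferroportin, the exporter of iron, was above the threshold in none of the lines. Levels were 0.09, -0.08, -0.32 and 0.04 in BV2, 0.68, 0.79, 0.74 and 0.53 in N18, with 2 plates above their own threshold, and 0.59, 0.05, 0.06 and 0.13 on the AtT20-labelled plates, with 1 plate above. N18 values were above all BV2 values, and the difference was called after quantile normalization (0.44 ± 0.15 SE, adjusted p = 0.0266) and on the seminal scale (0.75, adjusted p = 1.71e-05). No fold is given because both lines were below the threshold. The call after quantile normalization was lost without BV2 plate 2 or 3 or N18 plate 1, 2 or 3 (adjusted p 0.0528 to 0.0856). Of its 3 probes, probe 1 was above the threshold in N18 (1.16) and on the AtT20-labelled plates (0.71).

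Both regulators were above the threshold in BV2 and N18. Aco1 encodes iron regulatory protein 1, which is a cytosolic aconitase when it holds an iron-sulfur cluster. Its levels were 1.81, 1.27, 1.23 and 1.60 in BV2, 1.47, 1.85, 1.59 and 1.33 in N18 and 0.21, 0.05, -0.03 and -0.14 on the AtT20-labelled plates. BV2 and N18 overlapped, and no plate labelled AtT20 was above its threshold. The difference of N18 from BV2 was -0.35 ± 0.15 (SE, adjusted p = 0.0739), which did not pass the test, and 0.08 on the seminal scale. It passed without AtT20 plate 1 or plate 4 in the shared fit (adjusted p = 0.0191 and 0.0331).

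Ireb2 encodes iron regulatory protein 2, which is degraded when iron is plentiful. In BV2 its levels were 2.73, 1.99, 2.22 and 2.83, and in N18 3.31, 3.64, 3.08 and 3.21. Every N18 plate was above every BV2 plate on this scale. Relative to the seminal proteins N18 was 1.82-fold higher (0.87 ± 0.26 SE, adjusted p = 0.00957), and without normalization the difference was 0.84 (adjusted p = 0.0011). After quantile normalization it was 0.20 ± 0.13 (SE, adjusted p = 0.266) and was not called, so this call depended on the scaling. Of its 3 probes, probe 3 was called after quantile normalization (0.54, adjusted p = 0.0118). On the AtT20-labelled plates levels were 1.13, 1.27, 0.23 and 0.49, with probe 1 at 1.65 and probes 2 and 3 at -0.04 and -0.20.

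Hmox1, heme oxygenase 1, which cuts heme into biliverdin, carbon monoxide and iron, was above the threshold in BV2 and N18. Levels were 3.77, 3.23, 3.02 and 3.58 in BV2 and 2.73, 3.13, 2.36 and 2.26 in N18. The lowest BV2 plate, at 3.02, was below the highest N18 plate, at 3.13, so the lines overlapped on this scale, though not after quantile normalization. N18 was 2.62-fold lower after quantile normalization (-1.39 ± 0.15 SE, adjusted p = 1.41e-06) and 1.71-fold lower on the seminal scale (-0.78 ± 0.23 SE, adjusted p = 0.0085), with all 3 probes called. The AtT20-labelled plates had levels of 0.28, 0.29, -0.02 and 0.12, none above its threshold. There Hmox1 was at least 3.1-fold lower than in BV2 (-2.51, adjusted p = 3.75e-10) and at least 1.4-fold lower than in N18 (-1.12, adjusted p = 5.04e-06). Against N18 probes 2 and 3 were called, and probe 1 was not (-0.03, adjusted p = 0.924).

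Nqo1 encodes a quinone reductase, and like Hmox1 it is a textbook target of the factor NRF2, which acts through antioxidant response elements and is opposed at many of them by the heme-sensing repressor BACH1. It was below the threshold in BV2, where Hmox1 was at 3.40 ± 0.34 (SD, n = 4). Nqo1 levels were -0.09, 0.08, 0.19 and 0.20 in BV2 and -0.13, -0.09, -0.12 and -0.31 on the AtT20-labelled plates. In N18 they were 1.19, 1.67, 1.30 and 1.16, above the threshold on all 4 plates. It was at least 1.2-fold higher in N18 than in BV2 (0.73 ± 0.13 SE, adjusted p = 0.000241), with 3 of 3 probes called higher, and on the seminal scale the measured difference was 1.23 (adjusted p = 8.11e-09). With olfactory receptor genes as the controls in place of the seminal proteins, Nqo1 was no longer above the threshold in N18.

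The Nqo1 promoter is shown for the same reason, as the 250 bases before the RefSeq start (GRCm38.p6, chr8:107403206-107403455, minus strand), with a TATAAA match in capitals, the first base of which lies 29 bases before the start. TATAAA was found on either strand in 13.6% of all windows and in 3 of the 9 windows of the iron and heme genes (Nqo1, Ftl1 and Fth1). The Ftl1 match lies after the start, with its first base at position 18. The Fth1 match is on the strand opposite to the gene, 124 bases before the start. The core of the antioxidant response element, TGACNNNGC, was found in 12.4% of all windows and in 0 of these 9, which says only that these letters are not within the 300 bases searched.
Nqo1: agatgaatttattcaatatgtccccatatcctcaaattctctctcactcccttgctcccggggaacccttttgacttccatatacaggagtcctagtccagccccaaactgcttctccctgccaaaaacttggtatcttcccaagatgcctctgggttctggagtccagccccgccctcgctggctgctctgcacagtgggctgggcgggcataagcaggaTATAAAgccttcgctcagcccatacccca

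The AtT20-labelled plates were lower than both other lines for most of the genes after quantile normalization. Against BV2, 8 of the 10 were lower, 1 was higher (Slc40a1) and 1 was not called (Nqo1), while 73.6% of all features were called, 47.0% higher and 26.6% lower. Against N18, 6 were lower, 3 were higher (Tfrc, Slc11a2 and Slc40a1) and 1 was not called (Slc11a1), while 76.4% of all features were called, 48.6% higher and 27.8% lower. Of features above the threshold in either line, 81.2% were called against BV2 (39.9% lower) and 81.7% against N18 (41.4% lower). The comparisons share plates, and are given side by side only. Scaling mattered more here than between N18 and BV2. Of all calls against BV2, 63.8% were higher on the AtT20-labelled plates after quantile normalization, 25.8% on the seminal scale and 86.5% without normalization (68.0% and 86.4% of features called on the last 2), and the median of all features was 0.23, -0.28 and 1.08. Against N18 these shares were 63.6%, 21.2% and 76.0% (77.0% and 83.0% of features called on the last 2), and the medians 0.25, -0.54 and 0.85.

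Hmox1, Fth1 and Ftl1 were lower on the AtT20-labelled plates than in both other lines under each of these 3 scalings, as were Slc11a1 and Tfrc against BV2. Fth1 differed from N18 by -2.39 (adjusted p = 7.52e-13), by -5.12 with the median of probes and by -3.73 on the seminal scale, with N18 values near the upper limit and 2 of the 3 probes at background on the AtT20-labelled plates. Ireb2 differed from N18 by -0.84 (adjusted p = 2.7e-05), and by -2.53 on the seminal scale, and was called on all 3 scales, whereas its difference from BV2, -0.65 (adjusted p = 0.000389), was -0.30 without normalization and was not called (adjusted p = 0.205). Aco1 was lower than in BV2 by 0.90 (-0.90, adjusted p = 4.16e-05) and lower than in N18 by 0.56 (-0.56, adjusted p = 0.00282), but without normalization these differences were -0.10 and -0.15 and were not called. Nqo1 differed from N18 by -0.85 (adjusted p = 1.76e-05) and without normalization by -0.10, which was not called.

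For the uptake, transport and export genes the direction itself turned. Against N18, Tfrc was higher by 0.73 after quantile normalization (adjusted p = 0.000116) and lower on the seminal scale (-1.04, adjusted p = 0.000672). Slc11a2 was higher by 0.78 (adjusted p = 5.13e-06) and lower on the other scale (-1.06, adjusted p = 0.00107). Slc11a1 and Slc40a1, below the threshold in both, went from 0.29 to -0.54 and from 0.46 to -0.47. Against BV2, Tfrc was lower by 0.59 (-0.59, adjusted p = 0.000888) and by more on the seminal scale (-1.86, adjusted p = 1.25e-06). Slc11a2 was lower by 0.48 (-0.48, adjusted p = 0.000702), by more on the seminal scale (-1.73, adjusted p = 7.38e-06), and was not called without normalization (-0.37, adjusted p = 0.123). Among the probes of Tfrc, probe 2 alone was higher (1.06, adjusted p = 0.000772) and probe 3 lower (-3.70, adjusted p = 1.73e-11). No direction for Tfrc, Slc11a1, Slc11a2 or Slc40a1 from N18 to the AtT20-labelled plates held across the scalings.

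Other genes of iron, heme and antioxidant handling were read from 9 lists of 95 genes, of which 88 had a matched target. Between N18 and BV2, 23 of the 88 were higher in N18, 31 were lower and 34 were not called (61.4% called, median difference -0.10). Of all features 40.9% were called, 19.0% higher and 21.9% lower, with a median of -0.06. On the seminal scale the split of the 88 was 33 higher and 11 lower, and without normalization 31 and 9. Under all 3 scalings 22 were called higher and 9 lower, and over all features 18.7% and 7.16%. Differences given below for genes higher in N18 were larger on the seminal scale, for example 1.58 for Trf and 2.16 for Abcb6 in place of 0.92 and 1.46, and those of Lrp1, Mafk and Taldo1, lower in N18, were smaller there (-0.78, -0.83 and -0.71).

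Of 13 genes of iron uptake and export, 4 were higher and 4 lower in N18. Lcn2, a lipocalin that binds iron-loaded siderophores, had the largest difference of the lists, with a level of 5.95 ± 0.36 (SD, n = 4) in BV2 and 1.83 ± 0.32 in N18 (-4.60, 24.2-fold lower, adjusted p = 1.71e-13). Its proposed receptor Slc22a17 went the other way, at 1.32 in BV2 and 2.82 in N18 (0.77, adjusted p = 0.000264). Slc39a14 (ZIP14), an importer of iron not bound to transferrin, was lower in N18 (-1.57, adjusted p = 2.17e-08), and Cp, the ferroxidase ceruloplasmin, also (-0.42, adjusted p = 0.0138), though not under all 3 scalings (-0.21 on the seminal scale, adjusted p = 0.208). Cp was below the threshold in N18. Trf, transferrin itself, was higher in N18 (0.92, adjusted p = 0.000184), with levels of 1.91 in BV2 and 3.49 in N18 and 0.00 on the AtT20-labelled plates, and so was Steap1 of the metalloreductase family (0.74). Steap1 was below the threshold in BV2, with N18 at least 1.4-fold higher, but in each of these lines 1 of its 3 probes was above the threshold. Of 5 genes of ferritin delivery and turnover, only Ncoa4, the cargo receptor that takes ferritin to the lysosome, was called, lower in N18 (-0.33, adjusted p = 0.0465), and not under all 3 scalings. Of 7 genes of the hepcidin axis, Neo1, a co-receptor of hemojuvelin also known as the guidance receptor neogenin, was higher in N18 (2.05, adjusted p = 9.21e-10) and Bmp6, a ligand that induces hepcidin, was lower after quantile normalization (-0.49, adjusted p = 0.0176) but not under all 3 scalings (-0.38 on the seminal scale, adjusted p = 0.0563). Bmp6 was below the threshold in N18. Hamp, which encodes hepcidin, was below the threshold in all 3 lines. Its close paralog Hamp2 was above it in BV2 (0.76, 3 of 3 probes) and N18 (0.88, 2 of 3 probes), and cross-hybridization between the paralogs was not tested.

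Heme synthesis had 3 genes higher and 4 lower of 12. Cpox (0.98), Urod (0.53) and Fech (0.26), which encode the enzymes for coproporphyrinogen, uroporphyrinogen and the last step, the insertion of iron, were higher in N18 under all 3 scalings. Cpox and Fech were below the threshold in BV2, with N18 at least 1.3-fold and 1.1-fold higher. Tmem14c (-0.85), which moves a porphyrin precursor within mitochondria, Uros (-0.53) and Slc25a38 (-0.51), a mitochondrial glycine carrier, were lower after quantile normalization but not under all 3 scalings. Uros and Slc25a38 were below the threshold in N18, at least 1.2-fold and 1.1-fold lower than in BV2. Heme transport and breakdown had 4 higher and 4 lower of 12. Abcb6, a porphyrin transporter (1.46), Slc48a1, which carries heme out of the lysosome (1.13), and Abcg2, which exports porphyrins (0.79), were higher in N18. Abcg2 was below the threshold in BV2 (-0.44) and above it on 1 of 3 probes in N18, and no lower bound on its fold held. Hp, or haptoglobin, which binds free hemoglobin, was at least 2.7-fold lower (-1.99, adjusted p = 2.47e-08), and Lrp1, the receptor that clears heme bound to hemopexin, was lower as well (-1.55, adjusted p = 8.83e-08). Blvra, which reduces the biliverdin that heme oxygenase makes, was lower after quantile normalization (-0.59, adjusted p = 0.0025) but not under all 3 scalings.

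Of 15 genes of mitochondrial iron and iron-sulfur clusters, 8 were lower and 2 higher in N18 after quantile normalization, but 2 were lower and 5 higher on the seminal scale, and 2 lower and 4 higher without normalization. Fdx2 (-1.04) and Lyrm4 (-0.98), parts of the cluster assembly machinery, were lower under all 3 scalings, and Nfu1 (0.99), which delivers clusters, was higher. Slc25a37, the mitochondrial iron importer mitoferrin 1, was lower after quantile normalization (-1.13, adjusted p = 3.61e-05) but not under all 3 scalings.

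The regulators and targets of NRF2 were mixed. Of 6 regulators, 4 were lower and 1 higher in N18 after quantile normalization, and 1 lower and 1 higher on the seminal scale. Those 2 were small Maf partners of both NRF2 and BACH1, namely Mafk (-1.49, adjusted p = 9.11e-09) and Maff (1.33, adjusted p = 1.48e-07). Nfe2l2, which encodes NRF2, differed by -0.47 (adjusted p = 0.00388) and Bach1 by -0.40 (adjusted p = 0.0383), neither under all 3 scalings. Of 16 targets of NRF2, 7 were higher and 5 lower, and 7 and 2 under all 3 scalings. Txnrd1, thioredoxin reductase (1.26), Gclm, a subunit of the enzyme that starts glutathione synthesis (1.19), and malic enzyme Me1 (1.04) were higher in N18, as was Nqo1. Me1 was below the threshold in BV2, with N18 at least 1.7-fold higher. Taldo1 of the pentose phosphate pathway was lower (-1.34). G6pdx, which starts that pathway (-1.23), and the cystine carrier Slc7a11 (-0.97) were lower after quantile normalization but not under all 3 scalings.

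**Figure D4:**
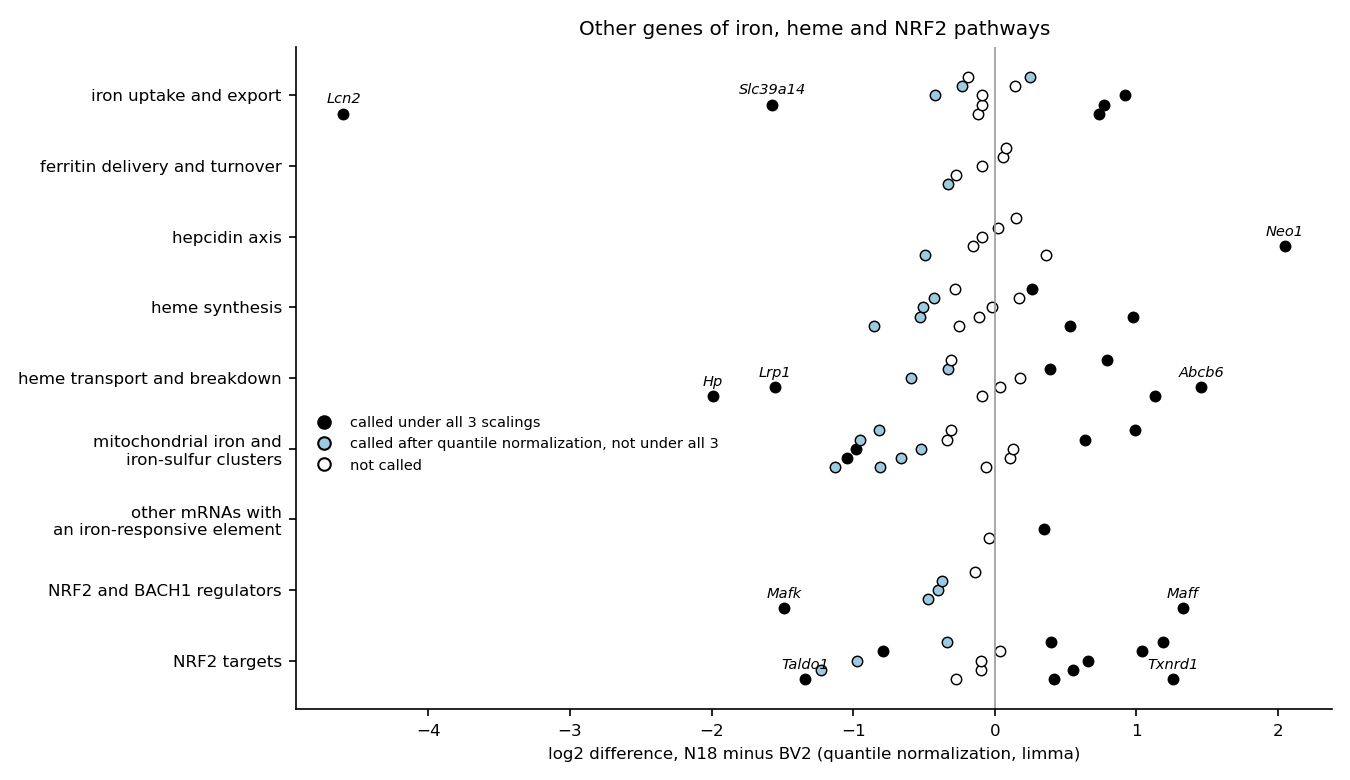
Log2 difference of N18 minus BV2 after quantile normalization for the 88 matched genes of the 9 lists, with 1 point per gene, filled black where the gene was called in the same direction under all 3 scalings and blue where it was called after quantile normalization but not under all 3. Lcn2 is farthest to the left at -4.60 and Neo1 farthest to the right at 2.05.

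Compared with BV2, the AtT20-labelled plates had 34 of the 88 list genes higher and 38 lower after quantile normalization, and compared with N18 34 higher and 33 lower, where 73.6% and 76.4% of all features were called. These splits turned with the scaling. Against BV2 they were 13 higher and 56 lower on the seminal scale and 50 higher and 24 lower without normalization, and against N18 11 and 64, and 39 and 27. Under all 3 scalings 13 were higher and 24 lower than in BV2, where 17.2% and 11.7% of all features were, and 11 higher and 25 lower than in N18, where 16% and 18.7% of all features were. Most of the genes higher in each comparison were below the threshold in both of its lines, so those calls compare background values. Of the 16 targets of NRF2, 11 were lower and 3 higher than in BV2 after quantile normalization, and 13 lower and 2 higher than in N18, while 26.6% and 27.8% of all features were lower. Among features above the threshold in at least 1 line of the pair, 39.9% and 41.4% were lower. Under all 3 scalings 8 were lower than in BV2 and 11 lower than in N18, and 1 target, the transketolase gene Tkt, was called higher than in both. Tkt was below the threshold in all 3 lines, at 0.01 on the AtT20-labelled plates, -0.22 in BV2 and -0.31 in N18. None of its probes was above the threshold, so this call compares background values.

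The gene whose pattern over the 12 arrays lay nearest to each gene above the threshold in at least 1 line was found among 12171 genes, as the smallest root mean square distance of the quantile normalized log2 values, each gene's own mean subtracted. Fth1 was nearest to Med10, a subunit of Mediator (distance 0.085), and Ftl1 to the ribosomal protein gene Rpl35 (0.146). Hmox1 lay nearest to Arhgef1 (0.137), Tfrc to Ceacam19 (0.12) and Slc11a2 to the clock gene Per1 (0.106). Slc11a1 had the greatest distance to its nearest gene, Creb5, at 0.267. Aco1 was nearest to Oas1c (0.103), Ireb2 to Ofd1 (0.087) and Nqo1 to Rell2 (0.121). Such likeness over 3 lines describes the pattern of line means and the plate spread and no more.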

How the data were processed

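Total RNA from 4 plates per line was reverse transcribed with oligo(dT), labelled with Cy3 by random nonamers and hybridized to NimbleGen long-oligonucleotide arrays of the mouse MM8 design. As deposited, the values are log2 intensities of 72000 probes on each of 12 arrays, which the authors extracted with NimbleScan and log2 transformed, with the probes of a target separate. No background subtraction or normalization between arrays is stated. Of 25631 targets, 17780 (69.4%) were given a gene symbol through a RefSeq table (names only).

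Intensities of the probes of each target were averaged before the log2 was taken, and a gene received the mean of its targets. Detection followed the threshold of the study's methods (2 SD of 10 seminal proteins). Differences between lines were fitted in R 4.3.3 with limma 3.58.1 (lmFit, eBayes with a trend) after quantile normalization, with Benjamini-Hochberg adjustment over 25128 features and a call at an adjusted p under 0.05. The fits were also run on simulated arrays with independent noise and few changed features. Those arrays lacked the wide differences between lines seen here, so that run does not bear on the calls. Where 1 line was below its threshold, the fold is a lower bound, the smallest over quantile normalized, seminal-relative and unnormalized values. Alternatives were other normalizations, a normexp correction (offset 50), other averages of probes, single probes, other control genes and thresholds, a filter on low values, the 8 arrays of a pair, array weights, a replicate block and each plate left out. The genes and lists were chosen with earlier results of these data known. Named list genes are, per list, up to 3 in each direction with the largest difference of N18 from BV2 among those called and above the threshold in at least 1 line, while marker genes, Hamp, Hamp2, Ftmt and Tkt were named after their values were seen. The single value of 1 list gene is not reported here, though the list counts include it. Figures were made with Python 3.11.15 and matplotlib 3.10.9.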

Additional observations from a re-analysis of the deposited data

Results flagged for a closer look

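In 2 of the 30 groups of 4 plates (10 genes in 3 lines), 1 plate stood far from the other 3, by a gap above Dixon's critical value for 4 samples. Chance alone gives such a gap in about 1 group of 20. The level of Slc40a1 was 0.59 on plate 1 labelled AtT20, against 0.05 to 0.13 on the other 3. The level of Nqo1 was -0.31 on plate 4 labelled AtT20, against -0.13 to -0.09 on the others. Both genes were below the threshold in that line.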

How the results depend on the processing

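Hmox1, Tfrc, Slc11a1, Slc11a2 and Nqo1 kept their direction and call between N18 and BV2 under the 11 other settings of the fit, with each of 12 plates left out and with each probe alone. Without normalization Fth1, Ftl1 and Aco1 turned to 0.04, 0.06 and 0.05, and relative to the seminal proteins to 0.07, 0.09 and 0.08. Ftl1 lost its call under the replicate block (adjusted p = 0.0554), with a normexp correction (0.0922), with the median of probes (0.104) and without BV2 plate 1, 2, 3 or 4 or N18 plate 2, 3 or 4 (0.0582 to 0.0916). Fth1 lost it with the median of probes (0.474), and Aco1 gained one with array weights (0.000387) and in both fits of the 8 arrays of the pair (0.00376 and 0.00331). With an absolute log2 difference of at least 1 required, 4, 4 and 3 of the 10 genes were called for N18 against BV2, AtT20 against BV2 and AtT20 against N18. With the median of probes, and with at least 2 probes above the threshold, 2 genes remained above it on the AtT20-labelled plates (Fth1 and Ireb2 were lost), and with each plate left out 4, 8 and 8 were above it for AtT20, BV2 and N18. For AtT20 against BV2, Nqo1 turned to 1.10 without normalization, to 0.31 with probe 2 alone and to 0.02 without AtT20 plate 4 (-0.20 to 0.02 over plates left out), Tfrc to 1.06 with probe 2 alone and Slc40a1 to -0.04 with probe 3 alone. For AtT20 against N18, Tfrc, Slc11a1, Slc11a2 and Slc40a1 turned to -1.04, -0.54, -1.06 and -0.47 relative to the seminal proteins, with Slc11a1 called lower there (adjusted p = 0.0175) and higher without normalization (0.85, 0.000122), Slc11a1 and Slc40a1 to -0.17 and -0.27 with the median of probes, Tfrc to -2.16 with probe 3 alone, Slc11a1 to -0.32 and -0.35 with probe 2 and probe 3 alone, and Slc40a1 to -0.05 and -0.43 likewise, while Slc11a1 passed without AtT20 plate 1 (0.66, adjusted p = 0.000348). The causes were not tested. Of all features, 10270 were called between N18 and BV2, against 16014 with array weights, 15509 with only the 8 arrays of the pair and 15554 with those 8 normalized alone. Between plates of like number in different lines, 12 correlations of deviations ran from -0.12 to 0.35, 3 of them over 0.1. Unlike numbers were not compared, so these values cannot settle whether plates were paired. The replicate block called 7, 9 and 9 of the 10 genes in the same order of comparisons, the loss being Ftl1. The filter on low values left out Slc40a1.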

Other observations

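Ftmt, the ferritin of mitochondria, was chosen after its values were seen. Its level was 3.01 ± 0.56 (SD, n = 4) on the AtT20-labelled plates, 0.03 ± 0.14 in BV2 and -0.27 ± 0.11 in N18, so that it was above the threshold in 1 line only, and there on 1 of its 3 probes. On those plates Ftl1 was at background and Fth1 likewise rested on 1 probe.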
